A study of Drosophila melanogaster with 3 samples.

Results

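The genes described here are 9 maternal and gap segmentation genes of Drosophila melanogaster, bcd, nanos, cad, hb, Kr, kni, gt, tll and hkb, chosen by name from 13945 protein-coding genes. Each was given a window made of its gene body and 10 kb on each side, and regions were assigned by their summits. The assay was ChIP-seq of CG3281, a C2H2 zinc finger protein, in whole embryos of both sexes aged 0 to 24 h. The embryos came from 1 transgenic line, strain CG3281-GFP, whose CG3281 protein carries GFP at its C terminus. Chromatin was sheared by sonication and precipitated with anti-GFP, although the antibody label itself reads CG3281. The series has 1 group with 3 biological replicates, so no treated or mutant group was compared. The values are ranked lists of regions: 30000 regions per replicate, 30000 for the pooled replicates, and 6565 peaks that passed the authors' irreproducible discovery rate filter, called reproducible peaks here. All 6565 were also the top-ranked pooled regions by signal, the lowest at 198.3. The 4 lists of 30000 regions include background, per the labels of the files. Read depth is unknown, and untagged embryos were not analysed here.

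The Drosophila embryo is divided along its long axis by a cascade of transcription factors. Maternal mRNAs come first: bcd, which encodes the anterior homeodomain protein, nanos, which encodes a posterior translational repressor, and cad, which encodes a posterior homeodomain protein and is also transcribed later by the embryo. They set the expression of the gap genes hb, Kr, kni and gt, each active in broad domains of the early embryo, and the terminal system acts through tll and hkb. The RNA of hb is both maternal and zygotic. The embryos were pooled over all of embryogenesis, so a strong region in few nuclei and a weak region in many cannot be told apart.

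Reproducible peaks lay at bcd, nanos and cad, called the 3 maternal genes here, and at none of the 6 gap and terminal gap genes. Since hb, counted with the gap genes, also has maternal RNA, 3 of the 4 genes with maternal RNA had such peaks in the window. That is near the share over all protein-coding genes, 70.1%. The windows of bcd, nanos and cad held 3, 6 and 5 reproducible peaks, 14 in all. A reproducible summit lay within 500 bp of a transcription start site (TSS) for 3 of the 9 genes, bcd, nanos and cad, where 24.8% of all protein-coding genes had such a summit. With the whole window, the count was again 3 of 9 genes, against 70.1% of all genes. The count at a TSS is near the background share and the count in windows is below it. The split into these 3 and 6 genes was made with the values known, and neither difference was tested. The windows of bcd, nanos and cad contained from 3 to 6 other protein-coding genes, and those of the other 6 genes from 0 to 3, where the median over all genes was 5 with quartiles of 3 and 7. The part that neighbouring genes play in the counts was not tested.

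**Figure D1:**
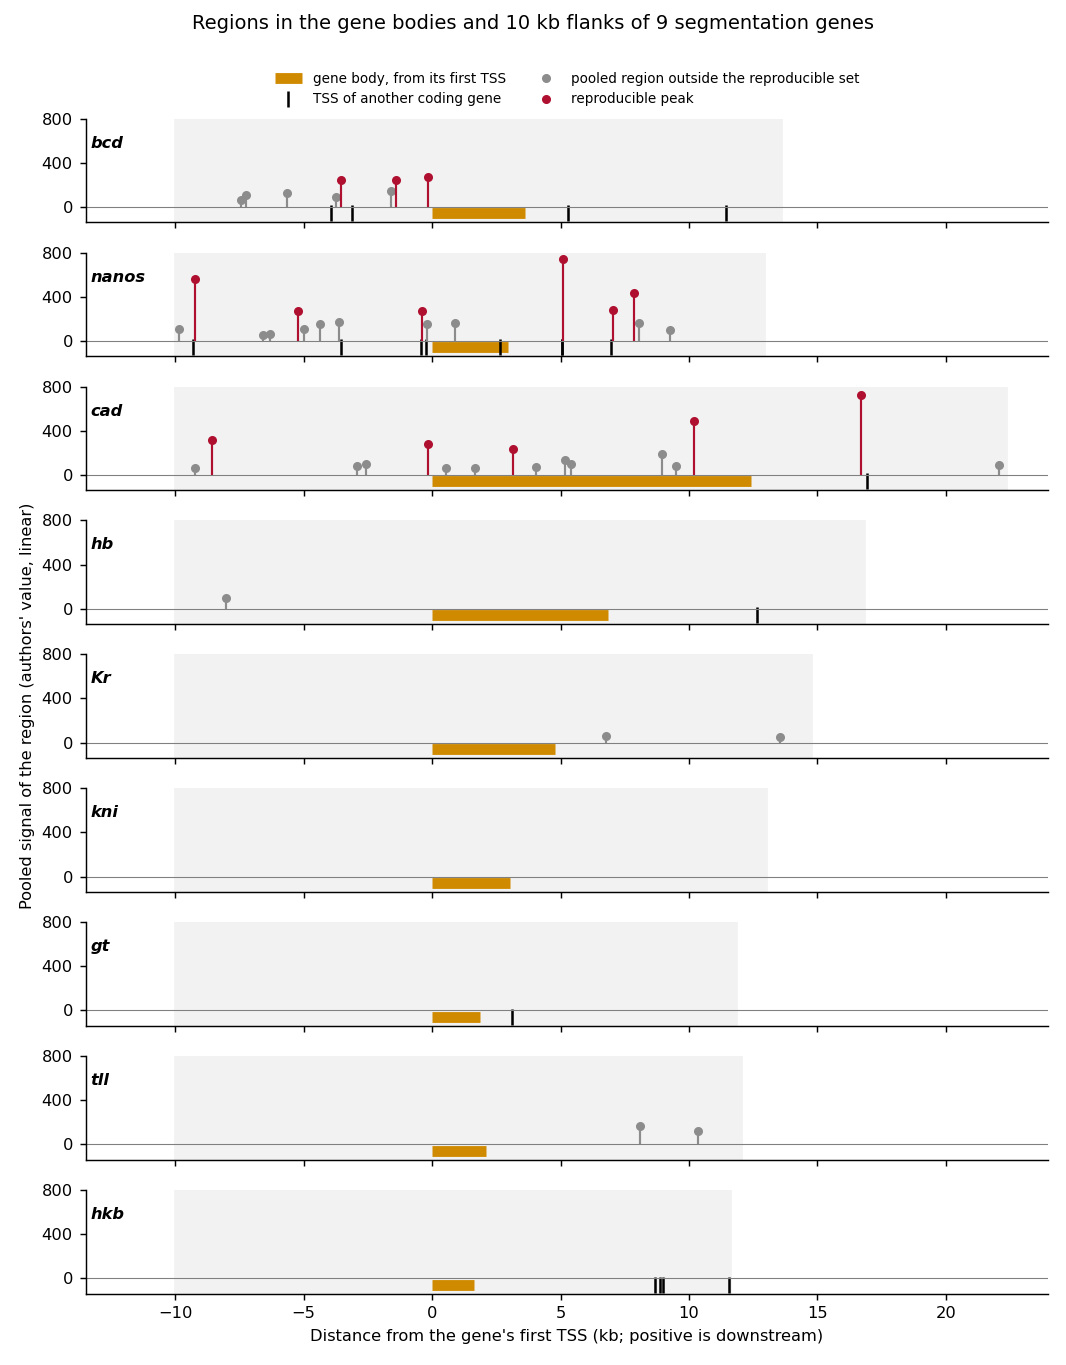
Pooled signal (authors' value, linear) of every pooled region in the 9 windows against distance from the gene's first TSS in kb, with each window shaded. Dark red stems are the 14 reproducible peaks, grey stems the 31 weaker pooled regions, orange bars the gene bodies and black ticks the TSSs of other coding genes: the red stems stand at bcd, nanos and cad, and kni, gt and hkb have no stem.

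The bcd gene (FBgn0000166) is a minus-strand gene at 6755842 to 6759466 on 3R (dm6). Its 3 reproducible peaks were all upstream of the TSS, towards the neighbouring Ama, which encodes a cell adhesion protein of the immunoglobulin family. The peak nearest the TSS (6759407 to 6759842) was centred at -159 bp in intergenic sequence and had a pooled signal of 269.9, rank 4447 of 6565. In replicate 1 the region over that summit had a signal 1.80 times the median of that replicate's list, and in replicate 2 the value was 2.65. Replicate 3 had no region over the summit, so the bcd promoter peak rested on 2 of the 3 replicates. The peak at -1402 bp (6760650 to 6761085, pooled signal 238.9) stood at 2.18, 1.75 and 2.18 times the list median in replicates 1, 2 and 3. The third, at -3549 bp (6762797 to 6763232, pooled signal 239.5), lay in an intron of Ama, 389 bp upstream of an Ama TSS. Its values were 3.24, 1.65 and 1.76 times the list median, with replicate 1 above the other 2. The window held 5 weaker pooled regions, from 64.8 to 139 in signal, all on the same upstream side.

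The sequence at the first and second bcd summits is shown because these are the peaks whose nearest TSS is that of bcd. Each runs 5′ to 3′ in the direction of bcd transcription, 101 bases centred on the summit, with matches to the searched words in capitals. The genome sequence is that of RefSeq for the same build.
bcd promoter peak, chr3R:6759575-6759675, minus strand: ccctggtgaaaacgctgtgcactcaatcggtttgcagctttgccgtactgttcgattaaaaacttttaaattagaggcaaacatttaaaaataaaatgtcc
bcd upstream peak, chr3R:6760818-6760918, minus strand: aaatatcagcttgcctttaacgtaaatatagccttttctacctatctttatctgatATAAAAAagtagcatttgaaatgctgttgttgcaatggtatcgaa
The promoter window held none of the words searched. The upstream window held ATAAAAA, a word of the kind bound by Hunchback, on the strand shown.

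The cad gene (FBgn0000251) runs along the plus strand of 2L, 20770731 to 20783135, and has TSSs at 20770731 and 20770894. Of its 5 reproducible peaks, 1 was at the promoter, 2 in introns of cad and 2 near its neighbours. The promoter peak (20770360 to 20770795) was centred at -153 bp, with a pooled signal of 276.0 and rank 4322. Its values were 2.61, 2.03 and 1.82 times the list median in replicates 1, 2 and 3 (mean 2.15 ± 0.409, SD, n = 3). The first intronic peak (20773862 to 20773979, summit at 2992 bp downstream of the TSS at 20770894) had a pooled signal of 230.4, the lowest of the 14. It stood at 2.04, 1.85 and 2.39 times the list median. The 2 intronic peaks were the only reproducible peaks with a summit inside any of the 9 gene bodies. The second, from 20780834 to 20781084, was the stronger, with a pooled signal of 487.2 and rank 1990. At 4.94, 4.14 and 3.82 times the list median (mean 4.30 ± 0.574, SD, n = 3), it lay above the promoter peak in every replicate. This second intronic peak was 10036 bp from the nearer cad TSS. The TSS nearest to it was that of the neighbouring gene Pomp, 6726 bp away.

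The 3 sequences below are from the cad promoter and introns, the peaks that lie in or at cad itself. They run 5′ to 3′ along the plus strand, with capitals as above.
cad promoter peak, chr2L:20770528-20770628, plus strand: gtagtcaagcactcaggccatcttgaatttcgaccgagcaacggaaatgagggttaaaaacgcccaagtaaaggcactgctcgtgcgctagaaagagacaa
cad first intronic peak, chr2L:20773836-20773936, plus strand: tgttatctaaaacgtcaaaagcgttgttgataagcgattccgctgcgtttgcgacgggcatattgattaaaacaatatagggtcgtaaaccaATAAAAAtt
cad second intronic peak, chr2L:20780880-20780980, plus strand: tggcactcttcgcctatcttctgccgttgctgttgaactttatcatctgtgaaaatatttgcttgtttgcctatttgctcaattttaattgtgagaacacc
The first intronic window held ATAAAAA, and the promoter and second intronic windows held none of the words searched.

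Both other cad peaks belonged in position to neighbours. The peak from 20787252 to 20787525, at 722.5 the strongest in the cad window, lay 241 bp upstream of Pomp, which encodes a proteasome maturation factor. It stood at 5.74, 5.22 and 7.59 times the list median in replicates 1, 2 and 3 (mean 6.18 ± 1.25, SD, n = 3). The peak from 20761952 to 20762387, signal 316.7, was in an intron of dia, which encodes a formin, with 2.46, 2.28 and 3.44 times the list median. Another 11 pooled regions in the window were below the reproducible set. The highest of them, signal 190.8 at rank 6884, was also in an intron of cad.

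The nanos gene (FBgn0002962), on the plus strand of 3R from 19157238 to 19160202, sits among 6 other coding genes within its window, the most of the 9. Its promoter peak (19156616 to 19157051, pooled signal 271.4, rank 4408) had its summit 404 bp upstream of the nanos TSS. The same summit was 22 bp upstream of a TSS of CG11779, a gene on the other strand that overlaps nanos. In replicates 1, 2 and 3 it stood at 2.33, 3.00 and 1.91 times the list median (mean 2.41 ± 0.549, SD, n = 3). When a summit was counted only for the gene with the nearest TSS, nanos lost this peak, and 2 of the 9 genes, bcd and cad, kept a reproducible summit at a TSS. The share of all genes under this rule was not computed.

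The other 5 reproducible peaks in the nanos window were at or in neighbouring genes. The strongest of all 14 (19162237 to 19162532, pooled signal 740.9, rank 1044) was 52 bp upstream of CG42359, which shares its 5′ end with Nsun5, a gene for an RNA methyltransferase. It stood at 5.26, 7.41 and 6.49 times the list median in replicates 1, 2 and 3 (mean 6.38 ± 1.08, SD, n = 3). A peak of signal 562.1 (19147970 to 19148203) was 101 bp upstream of Ppcs, whose product acts in coenzyme A synthesis, at 5.32, 4.41 and 4.94 times the list median. The gene sqz, which encodes a zinc finger factor of neurons, had a peak of signal 282.3 at 51 bp downstream of its TSS and another of 434.3 in an intron. The last, signal 266.2, was in an intron of CG5835. A further 10 pooled regions, from 53.2 to 174 in signal, were below the reproducible set. The sequence at the peak near CG42359 (dm6, RefSeq) is shown because it held TATCGATA, the DRE word bound by the promoter factor Dref.
peak near CG42359 in the nanos window, chr3R:19162302-19162402, plus strand: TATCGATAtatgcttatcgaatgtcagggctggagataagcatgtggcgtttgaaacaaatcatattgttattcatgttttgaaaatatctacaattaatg
The word is at the left edge of this plus-strand window and was the only match to it among the 14 peaks. TATCGATA was present in 1.2% of the 6565 reproducible peaks and in 6.21% of all promoters, taking the same number of bases upstream of each gene's first TSS.

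**Figure D2:**
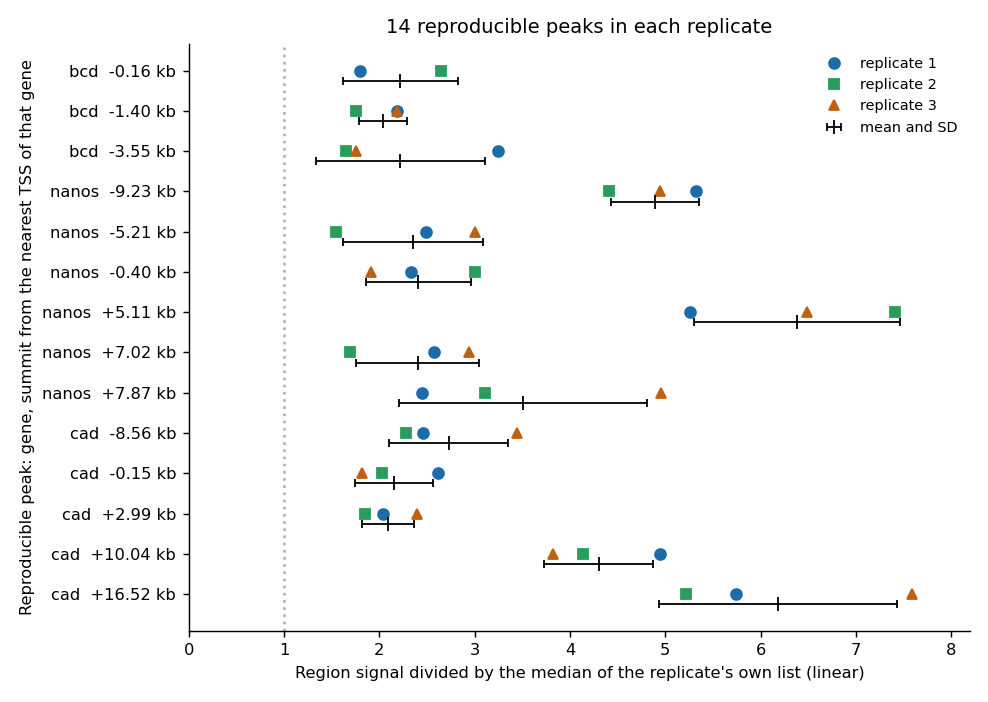
Signal of the region over each of the 14 reproducible summits divided by the median of the replicate's own list (linear), 1 row per peak, with a symbol per replicate and the mean and SD below it. The peaks at +5.11 kb of nanos and +16.5 kb of cad have the highest means, 6.38 and 6.18, and the bcd peak at -0.16 kb has no replicate 3 symbol.

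The nanos promoter peak, whose summit was nearer to a TSS of CG11779, is counted here with those of bcd and cad. The promoter peaks of the 3 maternal genes were close to each other in strength and weak for the set. Their pooled signals of 269.9 (bcd), 271.4 (nanos) and 276.0 (cad) compare with a median of 410.6 over the 3456 genes with a reproducible summit at a TSS. Of those genes, 23.7% had a weaker promoter peak than bcd, 24.2% a weaker one than nanos and 25.4% a weaker one than cad. Of the 14 peaks, 9 were below the median signal of the set, and the median of the 14 was 279.1, against 339.7 for all reproducible peaks. In 13 of the 14 a region covered the summit in all replicates, against 95.4% of the 6565 reproducible peaks. In 8 of the 14 it was among the strongest 6565 regions of every replicate, against 63.8% of them. The promoter peaks most like that of cad over the 3 replicates, by distance on the log2 scale of signal over list median among 3287 genes, were those of Efr, Hr39, PGRP-LE, Pka-C1 and Hrb27C, at distances from 0.06 to 0.15. Efr, for example, had values of 2.59, 2.00 and 1.89.

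The 14 summits fell in intergenic sequence in 6 cases, in introns in 6 and in 5′ UTRs of other genes in 2. For 10 of the 14 the nearest TSS was that of another gene, and 6 were within 500 bp of it. No such shares over all reproducible peaks or other windows are given here, so these counts describe the 14 peaks only. Leaving out every summit within 500 bp of the TSS of another coding gene, bcd kept 2 peaks, nanos 2 and cad 4, so the count of genes stayed at 3 of 9, against 43.7% of all genes treated alike. The GC content of the 101 bases at the summits ranged from 15.8% to 59.4% with a median of 33.2%, against 33.7% for all reproducible peaks. Of 8 words searched on both strands (GAGAG for GAGA factor, TATCGATA for the DRE, CAGGTAG for Zelda, TAATCC for Bicoid, TTTATG for Caudal, ATAAAAA for Hunchback, AAGGGTTA for Kruppel and GGTCACAC for M1BP), 10 of the 14 windows held none. The word ATAAAAA was in 2 of the 14, TATCGATA in 1 and TAATCC in 1, the nanos promoter peak that is nearer to CG11779. ATAAAAA was present in 10.9% of all reproducible peaks and 9.09% of promoters, and TAATCC in 3.05% and 2.75%. A match describes the letters and does not identify a binding site.

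The 6 gap and terminal gap genes were then read in the pooled and replicate lists, which reach into background. No pooled summit lay within 500 bp of a TSS of hb, Kr, kni, gt, tll or hkb. With the maternal genes, 3 of the 9 had a pooled summit there, against 47.5% of all genes. A pooled summit was somewhere in the window of 6 of the 9 genes, against 88.5% of all genes. The windows without any were those of kni, gt and hkb.

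The zygotic and maternal gap gene hb (FBgn0001180), which encodes a zinc finger factor of the anterior embryo, is a minus-strand gene at 8690980 to 8697822 on 3R. Its window held 1 pooled region (8705633 to 8706068), of signal 100, with its summit at -8029 bp (8705851). A replicate 1 region from 8705422 to 8705837, at 1.49 times the list median, overlapped this pooled region but ended short of its summit. No replicate had a region spanning that summit. In replicate 1 alone there was a region inside the gene, from 8694185 to 8694381, in an intron 316 bp downstream of the TSS at 8694600. Its signal was 5.84 times the median of that list, rank 1254 of 30000, and it overlapped no region of the pooled list. Replicates 2 and 3 had 0 regions anywhere in the hb window. Of the 1254 regions of replicate 1 that were at least as strong, 10 had no overlap with a pooled region.

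Kr (FBgn0001325), the zinc finger gene of the central domain, lies on 2R from 25226611 to 25231394, inside an intron of CG9380. Replicates 1, 2 and 3 had 5, 2 and 1 regions in its window, all below the median signal of their own lists, with values from 0.536 to 0.865. The pooled list had 2, of signal 62.7 and 51.0, where the lowest of that list was 50.1. The gene kni (FBgn0001320), which encodes a DNA-binding protein of the nuclear receptor family and lies on 3L from 20692330 to 20695378, had 1 region in replicate 1 (0.985 times the list median), 1 in replicate 2 (1.24) and 0 in replicate 3. These 2 regions were on opposite sides of the gene, at -5491 and 2827 bp. For gt (FBgn0001150; X, 2427113 to 2428967), which encodes a basic leucine zipper repressor, the window held 0 regions in every list. Only 3.98% of all genes had no summit of any list in their window. The gt window held 1 other coding gene, where the median over all genes was 5. The share was not computed for windows with so few neighbours.

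Of the terminal genes, tll (FBgn0003720; 3R, 30852315 to 30854400), which encodes an orphan nuclear receptor, was the only one of the 6 with regions in the same place in all replicates. A region at 8077 bp downstream (pooled signal 169.7, rank 7945) stood at 1.5, 0.910 and 1.63 times the list median in replicates 1, 2 and 3. A second, at 10346 bp (pooled signal 126.2), stood at 1.10, 1.14 and 0.896 times. Both were intergenic and fell short of the reproducible set. The gene hkb (FBgn0261434; 3R, 4345015 to 4346646), which encodes a zinc finger repressor, had 1 region in replicate 1 and 1 in replicate 3, 8913 and 8955 bp downstream. These lay at the start sites of CG1103 and Skp2, at 1.24 and 0.543 times the list median.

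**Figure D3:**
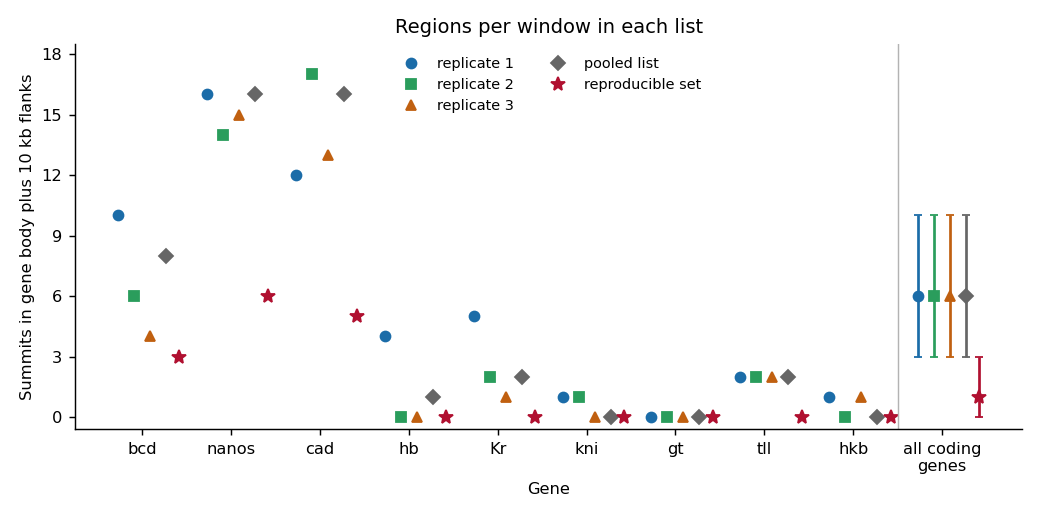
Number of summits in the gene body plus 10 kb flanks for each gene in the lists of replicates 1, 2 and 3, the pooled list and the reproducible set, with the median and quartiles over all protein-coding genes at the right. The nanos and cad windows hold 12 to 17 summits in each replicate and pooled list, above the upper quartile of 10, while gt is at 0 in every list.

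The order of single loci differed between replicates: nanos had more regions than cad in replicates 1 and 3 and fewer in replicate 2. In replicate 1, 38 regions were in the windows of the 3 maternal genes and 13 in those of the 6 gap and terminal gap genes. In replicate 2 the numbers were 37 and 5, and in replicate 3 they were 32 and 4. Per 100 kb this is 48.1, 46.8 and 40.5 regions at the maternal genes and 9.27, 3.57 and 2.85 at the other 6, where each list has 22.4 over the 6 chromosome arms. The split into these 3 and 6 genes was made with the values known. Their windows also differed in neighbours, with 3 to 6 other coding genes at the maternal genes and 0 to 3 at the other 6. The difference in number of regions was not tested. Over all genes the median was 6 regions per window in each replicate, with quartiles of 3 and 10. The bcd window, with 10, 6 and 4 regions in replicates 1, 2 and 3, was within these quartiles. So were hb and Kr in replicate 1, with 4 and 5. At a TSS, replicate 1 had a region for 4 of the 9 genes (bcd, nanos, cad and hb) against 51.0% of all genes. The hb region is the one found in no other list, and the count without it was 3 of 9. Replicate 2 had 3 of 9 against 50.8%, and replicate 3 had 2 of 9, nanos and cad, against 48.4%. In windows the counts were 8, 6 and 6 of 9, against 93.1%, 93.0% and 88.1% of all genes in replicates 1, 2 and 3.

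Few neighbouring genes lay around most of the 6 loci. In all, 5 of the 9 windows, those of hb, Kr, kni, gt and tll, held at most 2 other coding genes. None of the 5 had a reproducible summit, where 42.6% of the 2126 genes with so few neighbours had at least 1. A pooled summit was present in 3 of the 5, against 77.4% of such genes. The distance from the gene body to the nearest reproducible summit was 0 bp for cad, 159 bp for bcd and 404 bp for nanos. It was 14.2 kb for hb, 16.2 kb for kni, 25.2 kb for hkb, 33.5 kb for tll, 59.2 kb for Kr and 97.6 kb for gt, against a median of 3.51 kb over all genes. Only 1.59% of genes were farther from a reproducible summit than gt, and 4.06% were farther than Kr. With flanks of 20 kb in place of 10 kb, the windows of hb and kni took in 3 and 1 reproducible summits, and the count was 5 of 9 genes, against 83.3% of all genes with the same flanks.

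**Figure D4:**
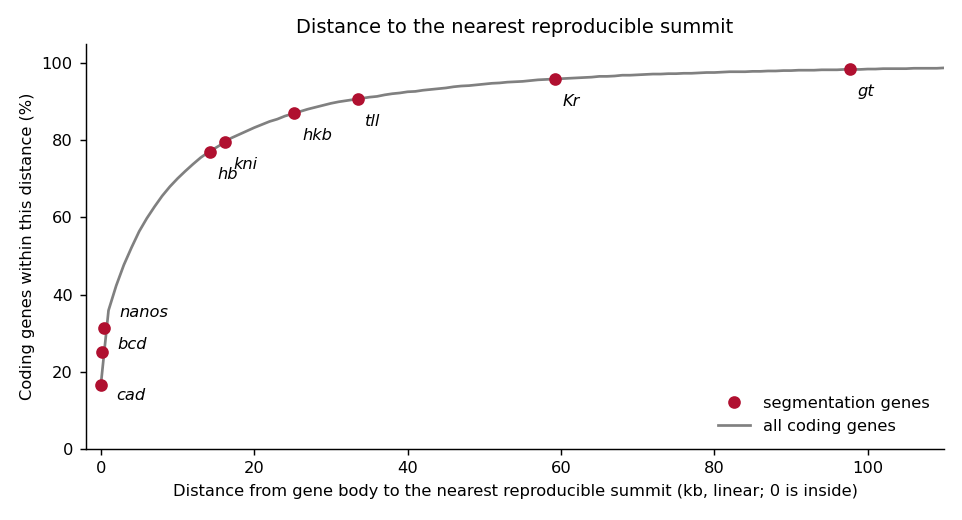
Share of all protein-coding genes (%) whose body lies within a given distance (kb, linear) of a reproducible summit, as a grey line, with the 9 genes marked on it. The maternal genes cad, bcd and nanos are at under 1 kb, and gt is farthest out at 97.6 kb.

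Other genes of the anterior-posterior system were counted in the same way from lists chosen by function. A reproducible summit at a TSS was present for 7 of 18 genes of maternal RNA localisation and translation, and 17 of the 18 had a reproducible summit in the window. The strongest were eIF4EHP, whose product binds the mRNA cap and represses translation of cad mRNA with Bicoid, at a pooled signal of 3721, then the actin nucleator gene capu (455.6), the translational repressor brat (384.9) and exu (376.6), needed to localise bcd mRNA. Pair-rule genes had 3 of 10 at a TSS, hry (357.6), ftz-f1 (234.3) and sob (233.4), and 4 of 10 in the window, while the windows of eve, ftz, run and opa, named after their values were seen, held no pooled region. Head gap genes, which share slp1 with the pair-rule list, had 1 of 6 at a TSS, cnc (729.0), and 4 of 6 in the window. Later gap-like factors had 0 of 4 at a TSS and 2 of 4 in the window. The terminal signalling genes upstream of tll and hkb had 1 of 10 at a TSS, the adaptor gene drk (292.7), and 6 of 10 in the window. Early general regulators had 4 of 6 at a TSS, the corepressor gene gro (1553), the GAGA factor gene Trl (1162), Stat92E (552.3) and Clamp (208.4), and 5 of 6 in the window. The gene zld, which encodes the activator of the zygotic genome, had no reproducible summit in its window and 13 pooled ones, and it too was named after its values were seen. The windows held a median of 1 other coding gene for the 9 genes, the pair-rule list and the head gap list. The median was 2.5 for later gap-like factors, 6 for the RNA localisation and terminal lists, and 6.5 for early regulators. The part that these neighbours play in the window counts was not tested. No list was tested against the 24.8% and 70.1% of all genes.

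Stricter sets lowered the count at a TSS, for the 9 genes and over all genes. Keeping the reproducible peaks above the median signal of the set left 0 of 9 genes with a summit at a TSS, against 15.2% of all genes. With 1 replicate left out, reproducible peaks were kept where a region among the strongest 6565 covered at least 50% of them in both other replicates. This left 1 gene, nanos, without replicate 1 or replicate 2, against 18.7% and 18.1% of all genes. Without replicate 3 it left 2 genes, nanos and cad, against 18.6%. The summit counted for nanos was nearer to a TSS of CG11779.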

How the data were processed

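Region lists on the dm6 assembly were used: 1 per biological replicate, 1 for the pooled replicates and the set filtered by irreproducible discovery rate. Per the labels and the deposited notes, the authors called each list with a control and with background included. The sources used here do not name the aligner, the caller or the threshold. The authors' signal value per region has a different scale in each list (medians of 33.9, 38.7 and 43.7 in replicates 1, 2 and 3, and 98.3 pooled), so replicate values were divided by the median of their list. The deposited −log10 q-value was kept in the tables but not used for a call, and the deposited summit offset gave each summit, with no other score used. Lists on dm3 were not used.

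Genes and TSSs came from Ensembl release 115 on the same assembly, and sequence from the RefSeq genome; arm lengths were compared and every region ended within its arm. A summit within 500 bp of a protein-coding TSS was at that TSS. Calculations used Python 3.11.15, numpy 2.4.6, pandas 2.3.3 and matplotlib 3.10.9, and the counting was tested on simulated data. All 9 genes are named, with up to 4 genes per comparison list by signal. In the lists phl is annotated as Raf. The genes, lists and words were chosen with earlier results of these data known, and no test was run. The labels call the samples biological replicates, and SD values measure only the spread between them. Alternatives were other TSS windows, flanks and overlap rules, nearest-TSS assignment, the peaks above the median signal, and each replicate left out.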

Additional observations from a re-analysis of the deposited data

How the results depend on the processing

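The count of 3 genes with a reproducible summit at a TSS went to 0 among peaks above the median signal of the set. It ranged from 1 to 2 when each replicate was left out. With a TSS window of 250 bp, or by nearest TSS only, the count was 2, and with a TSS window of 1000 bp it was 3. For these other TSS windows and the nearest-TSS rule the share of all genes was not computed. The 14 summits in windows became 22 with flanks of 20 kb, 5 among peaks above the median and 8 without those at the TSS of another gene (an alternative chosen after seeing the data), and ranged from 8 to 10 when each replicate was left out. The 6.39 summits per 100 kb over the 9 windows (17.7 at bcd, nanos and cad and 0 at the other 6, against 4.9 over the 6 arms) became 2.28 among peaks above the median and ranged from 3.65 to 4.56 with a replicate left out. These last 2 kinds of setting keep fewer peaks, from 4399 to 4580 with a replicate left out. The 4.9 over the 6 arms is for the whole set and was not recalculated, so the lower densities cannot be set against it. The 3 genes with a summit in the window became 5 with flanks of 20 kb. The 2 genes with a region at a TSS in every replicate's list became 1 with a TSS window of 250 bp and 1 among the strongest 6565 regions only. The share of all genes was not computed for these counts, so they cannot be set against a background. The median over the 14 peaks of the mean signal over list median, 2.41, ranged from 2.41 to 2.75. For the single peaks, each mean was compared with the SD of the same replicate values. Leaving 1 replicate out cannot move such a mean by 1 SD, so the comparison could not show a change. Taking any overlap with the peak, in place of its summit, left the means unchanged. No paired analysis was possible because there is 1 group. Read depth, and so counting error per region, is unknown.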
